A study of Mus musculus with 10 samples.

Results

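Mice heterozygous for both Ddx41 and Trp53 were compared with mice wild type for both genes across all genes measured by RNA-seq in R2 erythroid progenitors. The comparison used the 2 Ddx41+/-Trp53+/- libraries (mice 46 and 47) and the 3 Ddx41+/+Trp53+/+ libraries (mice 10, 11 and 12), which are 5 of the 10 libraries of the series. The other 5 libraries, 2 from Ddx41+/-Trp53+/+ mice (32 and 34) and 3 from Ddx41+/+Trp53+/- mice (22, 23 and 24), contributed to the estimate of the spread between mice and are given side by side where they bear on a result. The question of the study was how loss of 1 copy of the p53 gene changes the state of cells that have lost 1 copy of Ddx41.

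Each library came from 1 recipient mouse. BoyJ recipients, which keep some blood cells of their own after lethal irradiation, received 1000000 bone marrow (BM) cells from donors that carried Rosa-CreERT2, a tamoxifen-activated Cre recombinase expressed in all tissues. All 4 genotypes therefore carried the same Cre and all recipients were given the same tamoxifen, 1 mg in 50 µl of corn oil on 5 days in each of 2 rounds with 2 days between them. The Ddx41+/- genotype arose when Cre deleted the floxed allele after transplantation, whereas Trp53+/- was a germline knockout allele present in every donor cell. At 8 weeks post-transplant, cells positive for both CD71 (the transferrin receptor) and Ter119 (an erythroid surface antigen), named R2 cells, were sorted, about 100000 per mouse. The ages of the mice were not given in the sources used here, and the deposited counts were named as leaving out mice 35 and 45.

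DDX41 is a DEAD-box RNA helicase with roles in splicing, in processing of small nucleolar RNAs, in the resolution of RNA-DNA hybrids and in sensing of nucleic acids, and germline mutations of its gene predispose to myeloid neoplasms. The p53 protein, encoded by Trp53, is a transcription factor that halts the cell cycle or triggers cell death after DNA damage and after ribosomal or replication stress, and erythroid progenitors are among the cells most sensitive to it. R2 cells divide rapidly while they fill with hemoglobin, so most of their mRNA encodes globins, heme enzymes and red cell membrane proteins.

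The double heterozygote libraries held 16869205 and 17949900 counts and the double wild-type libraries 14590345 to 20283930 counts on genes. Of 24421 genes, 11846 passed the filter on low counts and were tested. Values are given as CPM, the count of a gene scaled to the TMM-adjusted library size, which is not corrected for gene length and so compares mice but not genes. Erythroid markers were abundant in all 10 libraries, with Slc4a1 (the red cell anion exchanger) at 28253, 27161 and 29694 CPM in the double wild-type mice and 25469.5 and 27721 CPM in the double heterozygotes. The adult globin genes have near-identical copies and were listed at no more than 21 counts in any library, so they could not be compared. Neutrophil, macrophage and B cell markers were detected as well, and the markers that move with the genotype are given beside the results below. Replicates of each genotype differed by more than counting error alone. The counts come from amplified reads without molecular identifiers, so the floor of 3 counts used here (0.146 to 0.208 CPM in these 5 libraries) and the counting intervals cover counting error only.

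The targeted genes were checked first. Ddx41 (chr13:55530410-55536658, GRCm38) was at 25.1, 21.9 and 22.6 CPM in double wild-type mice 10, 11 and 12 and at 12.5 and 15.6 CPM in double heterozygotes 46 and 47. The groups did not overlap, and Ddx41 fell to 0.607 of the wild-type level (log2 fold change -0.72 ± 0.152 (SE), adjusted p = 0.0258). The call was lost without either double heterozygote, since without mouse 46 the log2 fold change was -0.57 (adjusted p = 0.411), and without mouse 47 it was -0.89 (adjusted p = 0.0770). The call was lost without mouse 10 as well, at -0.66 (adjusted p = 0.0761). Trp53 (chr11:69580359-69591873) was at 57.4, 57.4 and 58.9 CPM in the double wild-type mice and 40.3 and 46.2 CPM in the double heterozygotes. These groups did not overlap either, with a log2 fold change of -0.42 ± 0.101 (SE) that missed both limits of the test (adjusted p = 0.0574). An exact two-sided permutation test over the 5 mice gave p = 0.1 for each gene, the smallest value that 2 mice against 3 can give. Both genes were lower in the libraries labelled heterozygous for them, also among the single heterozygotes, where Ddx41 was at 13.8 and 16.5 CPM in the Ddx41+/-Trp53+/+ mice and Trp53 at 43.1, 41.8 and 44.5 CPM in the Ddx41+/+Trp53+/- mice.

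Across all genes, 131 were differentially expressed genes (DEGs), meaning that they changed by more than 1.5-fold with a Benjamini-Hochberg adjusted p below 0.05 in edgeR's quasi-likelihood test. They made up 1.11% of the genes tested. Of them, 118 (0.996%) rose and 13 (0.11%) fell in the double heterozygotes, whereas the median log2 fold change of all tested genes was -0.0034. The size of the change was under 2-fold for 40 DEGs, over 2-fold for 91 and over 4-fold for 21. Double heterozygous and double wild-type mice were separate for all 131 DEGs, as they were for 28.3% of all tested genes, so separation alone is a weaker criterion than the test. The median level of the DEGs over the 10 mice was 13.4 CPM against 15.4 CPM for all tested genes, and 7 of the 131 DEGs exceeded 100 CPM, as did 16.2% of all tested genes. The highest was Pink1, the mitophagy kinase, at 171, 125 and 174 CPM in the double wild-type mice and 245 and 244 CPM in the double heterozygotes (log2 fold change 0.64 ± 0.13 (SE), adjusted p = 0.0204). Pink1 lost the call without mouse 11, 46 or 47.

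The number of DEGs depended on single mice. Without mouse 46 there were 31 DEGs, without mouse 47 there were 41, and with these 2 genotypes alone in the fit there were 77. Of the 131 genes, 31 were still called without mouse 46 and 38 without mouse 47, and 24 of them in both of these fits, in which the lone double heterozygote is assumed to vary like the other genotypes. Leaving out a double wild-type mouse gave 96 to 159 DEGs, and 90 (mouse 10), 82 (mouse 11) and 110 (mouse 12) of the 131 were still called. No DEG changed direction in any of the 11 alternatives tried for single genes. The groups were separate for all 131 DEGs, so leaving out a mouse could hardly have reversed a direction. Other filters or size factors on the same counts could hardly have done so either. The kept direction is therefore no evidence of stability in these fits. Of the DEGs, 7 (Slc15a2, Irgm2, Igtp, Myo15, Mid1, Zbtb10 and Fam132b) were called in every alternative. The same double wild-type mice serve as the controls of both single heterozygotes, in which 64 genes (Ddx41+/-Trp53+/+) and 108 genes (Ddx41+/+Trp53+/-) were called, so the 3 comparisons are not independent and the levels in every genotype are given instead.

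**Figure D1:**
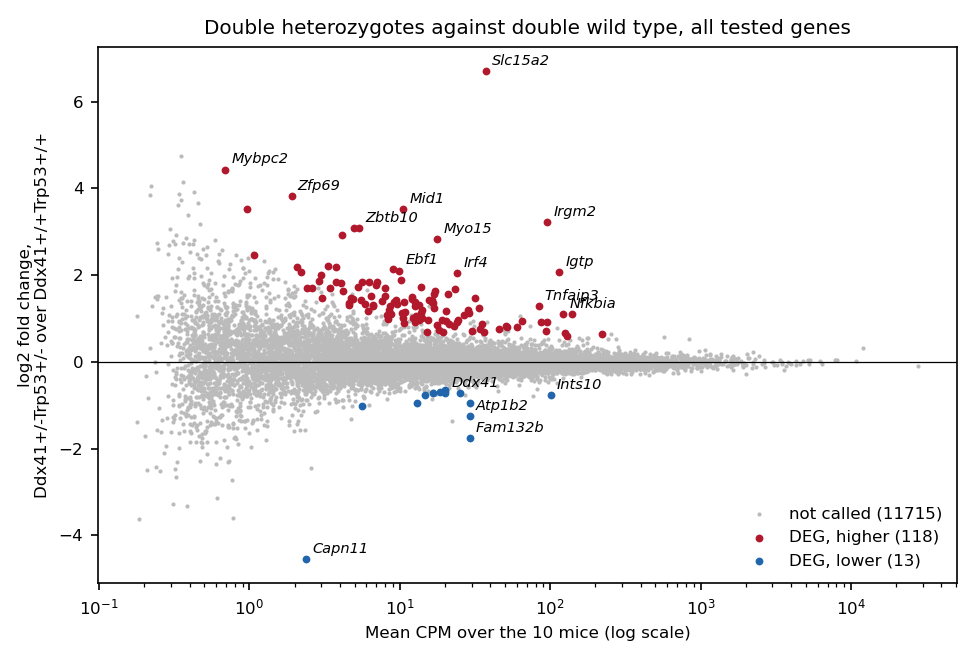
Log2 fold change of Ddx41+/-Trp53+/- over Ddx41+/+Trp53+/+ (vertical axis) against the mean level in CPM over the 10 mice (horizontal axis, log scale) for the 11846 genes tested, with 1 point per gene. The 118 DEGs that rose are red, the 13 that fell are blue, and most lie between 1 and 100 CPM, below the level of the abundant erythroid transcripts, which stay close to 0.

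Of the 118 DEGs that rose, 73 were in none of the gene lists. The B cell lists held 24 of the 118, 19 of them in a list put together after the values had been seen. Of the lists not chosen that way, that of NF-kB held 6 genes that rose. Those of B cell markers and of immediate-early genes held 5 each. These lists too were chosen with earlier results of these data known, so their shares are no independent support. In bulk RNA from sorted cells, more cells of a type cannot be told apart from more RNA per cell. All 20 tested members of the B cell marker list had positive fold changes, 5 of them rose past the test (0.996% of all tested genes did), and the median log2 fold change of the list was 1.07. Ebf1, a transcription factor that commits cells to the B lineage (chr11:44617317-45008091), was at 3.48, 2.33 and 4.57 CPM in the double wild-type mice and 16.2 and 13.2 CPM in the double heterozygotes (log2 fold change 2.10 ± 0.302 (SE), adjusted p = 0.00169). Cd79a, a signalling chain of the B cell receptor, was at 18.5, 11 and 22.9 CPM against 44.9 and 37.6 CPM (log2 fold change 1.25 ± 0.231 (SE), adjusted p = 0.0124). Called markers also included Fcrla, an Fc receptor-like protein of B cells (log2 fold change 1.30), and Blnk, an adaptor of B cell receptor signalling (1.05). In each of these 4 genes the lowest wild-type value was that of mouse 11, and the double heterozygotes lay above all 3 wild-type mice. Cd74, the invariant chain of MHC class II, was at 266, 168 and 142 CPM against 297 and 256 CPM and did not pass (adjusted p = 0.25).

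A longer list of 30 B cell regulators and surface genes, put together after the values had been seen, is no independent support. It held 19 genes that rose (0.996% of all tested genes did) and none that fell (0.11%), with a median log2 fold change of 1.23. Irf4, a transcription factor of activated B cells and plasma cells (chr13:30749226-30766976), was at 12.1, 4.86 and 10.8 CPM in the double wild-type mice and 38.9 and 37.3 CPM in the double heterozygotes (log2 fold change 2.05 ± 0.259 (SE), adjusted p = 5.03e-04). Pou2af1, the B cell coactivator of octamer-binding factors, was at 11.9, 5.78 and 11.3 CPM against 30.4 and 30.7 CPM (log2 fold change 1.67 ± 0.228 (SE), adjusted p = 0.00103). Foxp1, a forkhead factor needed early in B cell development, was at 19.7, 16.2 and 16.9 CPM against 35.4 and 41.3 CPM (log2 fold change 1.12 ± 0.133 (SE), adjusted p = 3.13e-04). All 3 genes stood clear of the wild-type range, with both double heterozygotes above every wild-type mouse. Ccr7, a homing receptor of lymphocytes (1.89), Cd69, an early activation antigen (1.56), Bach2, a repressor of plasma cell fate (1.64), and Foxo1 (1.39) rose as well. Btk and Ikzf1, kinase and zinc finger factor of wider expression in blood cells, had log2 fold changes of -0.06 and -0.03 and did not pass.

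The level of B cell transcripts also differed among the mice of other genotypes. The summed level of the 20 tested markers of the list was 375 to 625 CPM in the double wild-type mice and 664 to 776 CPM in the double heterozygotes. The 7 defining markers summed to 69.8, 34.5 and 73.9 CPM against 142 and 126 CPM. None of these 7, which include Cd79a, Cd79b, Ms4a1, Ebf1, Vpreb1 and Igll1, was at 0 in any library. In the single heterozygotes the 20 tested markers summed to 578 and 824 CPM (Ddx41+/-Trp53+/+) and 601 to 721 CPM (Ddx41+/+Trp53+/-). Ebf1 was at 6.57 and 15.2 CPM in the Ddx41+/-Trp53+/+ mice and at 11.2, 11.9 and 14.8 CPM in the Ddx41+/+Trp53+/- mice, so the double wild-type mice had the lowest values of all 4 genotypes. Of the 24 called genes of both B cell lists, 7 were called without mouse 46 (adjusted p 0.130 to 0.549 for those lost) and 8 without mouse 47 (0.0501 to 0.179). Without mouse 11, which had the lowest median B cell marker level, 16 of the 24 were called, and 19 were without mouse 10. With the log2 summed marker level of each mouse as a covariate, a fit added after the data were seen, 8 of the 131 DEGs were called and all 131 kept their direction. The marker level did not overlap between the 2 genotypes compared, so this fit cannot fully separate it from the genotype.

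NF-kB is a family of inducible transcription factors held in the cytoplasm by inhibitors of the IkB family, and its target genes include those same inhibitors. Of the 20 tested genes of NF-kB and its feedback loop, 6 rose (0.996% of all tested genes did), none fell (0.11%) and the median log2 fold change was 0.54. Nfkbia encodes the main inhibitor IkBα (chr12:55489410-55492647) and was at 70.9, 93.4 and 72.1 CPM in the double wild-type mice and 166 and 173 CPM in the double heterozygotes (log2 fold change 1.10 ± 0.154 (SE), adjusted p = 0.00126). Tnfaip3 encodes the ubiquitin-editing enzyme A20 (chr10:19000910-19015657), which shuts signalling down, and was at 55.2, 51.6 and 45.4 CPM against 119 and 129.7 CPM (log2 fold change 1.29 ± 0.15 (SE), adjusted p = 3.12e-04). Rel, the c-Rel subunit itself (chr11:23736847-23770970), was at 4.85, 4.13 and 4.29 CPM against 11.9 and 11.8 CPM (log2 fold change 1.42 ± 0.226 (SE), adjusted p = 0.00437). In all 3 genes both double heterozygotes lay well above the highest wild-type mouse. Nfkbid, a nuclear IkB protein (0.99), Cd83, a surface protein of activated antigen-presenting cells (1.19), and Nlrp3, a sensor of the inflammasome (1.01), made up the rest of the called genes. The other subunits had log2 fold changes of 0.22 (Nfkb1), 0.54 (Nfkb2), 0.02 (Rela) and 0.42 (Relb) and did not pass.

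For 5 of the 6 called genes, all but Nfkbid, both double heterozygotes lay above all 8 other mice. Both lay beyond the others, in either direction, in 4.6% of all tested genes and in 1 of the 24 called B cell genes. Called genes were already separate from the double wild-type mice, so the share of all tested genes is not a like comparison. Tnfaip3 was at 90.3 and 92.2 CPM in the Ddx41+/-Trp53+/+ mice and at 63.6, 108 and 82.7 CPM in the Ddx41+/+Trp53+/- mice. Nfkbia was at 112 and 142 CPM and 110.1, 166 and 118 CPM in the same mice. The single heterozygotes thus lay between the double wild-type and the double heterozygous mice for both genes, although Ddx41+/+Trp53+/- mouse 23 came close to the double heterozygotes for Nfkbia. Zc3h12a, chosen after its values were seen, encodes an RNase that degrades cytokine mRNAs and showed the same order, with 6.54, 6.32 and 5.74 CPM in the double wild-type mice, 15 and 13.6 and 10, 14.8 and 12.7 CPM in the single heterozygotes and 16.1 and 19 CPM in the double heterozygotes (adjusted p = 3.98e-04). Without mouse 46, 2 of the 6 listed genes were called (Tnfaip3 and Nfkbia), and without mouse 47 these and Rel. Without mouse 11 or mouse 12, 4 of the 6 were called. Nfkbid and Cd83 were those lost (adjusted p 0.0521 to 0.0957). B cell markers moved in the same direction (375 to 625 against 664 to 776 CPM in sum). With their level as a covariate none of the 6 was called, at log2 fold changes of 1.11 for Nfkbia, 1.12 for Tnfaip3, 1.20 for Rel, 1.04 for Nlrp3, 0.61 for Nfkbid and 0.61 for Cd83. All but those of Nfkbia and Nlrp3 were smaller than without the covariate, by the most for Cd83 and Nfkbid.

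The upstream sequence of these 3 genes is shown because NF-kB acts on its feedback genes through sites near their start. Each run is the 250 bases before the transcription start in RefSeq (GRCm38.p6), 5′ to 3′ on the strand of the gene, with matches to the kappaB consensus on either strand in capitals. The table lists 2 start sites for Tnfaip3, and the one with a match is shown. It lies inside the longer gene model used for the position above.
Nfkbia (chr12:55492648-55492897, minus strand): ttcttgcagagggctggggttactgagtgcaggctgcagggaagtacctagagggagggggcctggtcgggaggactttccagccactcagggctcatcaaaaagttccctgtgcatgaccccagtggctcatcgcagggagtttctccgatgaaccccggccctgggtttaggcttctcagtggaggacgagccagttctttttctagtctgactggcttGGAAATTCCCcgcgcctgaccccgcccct
Tnfaip3 (chr10:19015411-19015660, minus strand): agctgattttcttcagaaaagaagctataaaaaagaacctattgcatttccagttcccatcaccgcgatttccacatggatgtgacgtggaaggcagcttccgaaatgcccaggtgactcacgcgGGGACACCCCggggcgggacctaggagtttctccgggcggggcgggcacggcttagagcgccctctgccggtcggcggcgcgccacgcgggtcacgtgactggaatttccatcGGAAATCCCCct
Rel (chr11:23770970-23771219, minus strand): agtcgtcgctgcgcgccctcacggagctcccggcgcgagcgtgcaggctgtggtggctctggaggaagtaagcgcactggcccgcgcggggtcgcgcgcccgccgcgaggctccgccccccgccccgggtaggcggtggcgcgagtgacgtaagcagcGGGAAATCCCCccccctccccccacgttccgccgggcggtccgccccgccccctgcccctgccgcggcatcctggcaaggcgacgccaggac
The match in Nfkbia began 29 bases before the start, those in Tnfaip3 125 and 12 bases before it, and the pair of overlapping matches in Rel 92 and 91 bases before it. A match was present before at least 1 start of 8.23% of all 27025 genes with a promoter in the table. It was present in 9 of the 16 genes of the NF-kB list that have one there, and in 5 of the 5 called genes with one (Nfkbia, Nfkbid, Nlrp3, Rel and Tnfaip3). The list was built from known targets, so the share says nothing of the genotype.

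Immediate-early genes are transcribed within minutes of a growth or stress signal, without new protein synthesis. Of 27 tested, 5 rose (0.996% of all tested genes did) and none fell (0.11%). Of the 27, 24 had positive fold changes, as did 5848 of all 11846 genes, and the median log2 fold change was 0.57. Fosb, a subunit of the transcription factor AP-1 (chr7:19302696-19310051), was at 85.7, 76.9 and 112 CPM in the double wild-type mice and 195 and 195 CPM in the double heterozygotes (log2 fold change 1.09 ± 0.164 (SE), adjusted p = 0.00247). Klf6, a Krüppel-like factor, was at 58.9, 60.4 and 80.1 CPM against 132 and 120.0 CPM (log2 fold change 0.93 ± 0.157 (SE), adjusted p = 0.00691). Egr3, of the early growth response factors, was at 0.738, 0.632 and 0.968 CPM against 2.85 and 4.26 CPM (log2 fold change 2.20 ± 0.391 (SE), adjusted p = 0.0111). None of these ranges overlapped, as was so for every DEG. Maff, a small partner of AP-1-like factors (1.71), and Klf4 (0.83) rose as well. Fos, the founding member of the class, was at 234, 204 and 351 CPM against 284 and 161 CPM, with overlapping groups (adjusted p = 0.826). Jun, its partner, was at 166, 163 and 255 CPM against 308 and 301 CPM (log2 fold change 0.65, adjusted p = 0.094). Junb and Ier2 had log2 fold changes of 0.51 and 0.50 with adjusted p of 0.026 and 0.0191, under the fold limit. Without mouse 46 the calls of Klf6, Maff and Klf4 were lost, and without mouse 47 those of Egr3, Maff and Klf4 (adjusted p 0.0699 to 0.460). Klf4 lost it also without mouse 10 or mouse 11. None of the 5 was called with the B cell marker level as a covariate (log2 fold change 1.13 for Fosb, 1.04 for Klf6, 2.26 for Egr3, 1.77 for Maff and 0.52 for Klf4, the last smaller than without it).

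Among cytokines and their receptors, 2 of 28 rose (0.996% of all tested genes did), and both bind interleukin-1. Il1r1, the signalling receptor, was at 22.4, 20.7 and 26 CPM in the double wild-type mice and 34.7 and 40.9 CPM in the double heterozygotes (log2 fold change 0.72 ± 0.144 (SE), adjusted p = 0.0204), and Il1r2, the decoy receptor, at 6.7, 5.3 and 6.71 CPM against 14.5 and 13.1 CPM (log2 fold change 1.15 ± 0.219 (SE), adjusted p = 0.0154). Both calls were lost without mouse 11, 46 or 47 (adjusted p 0.0519 to 0.240), and that of Il1r1 without mouse 10 as well. The inflammatory cytokines Tnf and Il1b had log2 fold changes of 0.82 and -0.38 and did not pass. The median of the list was 0.07.

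**Figure D2:**
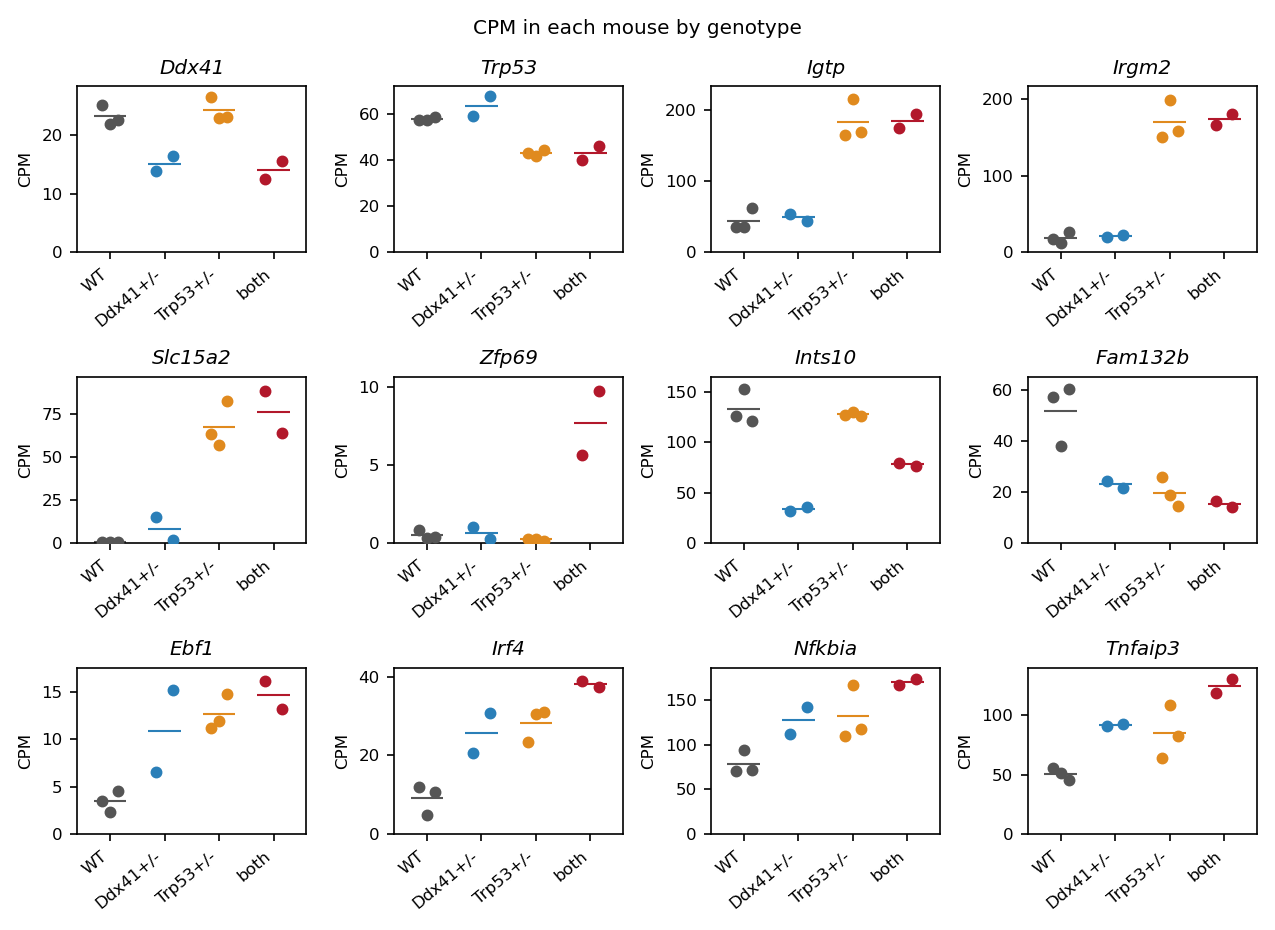
CPM of 12 genes in each mouse (vertical axes, each from 0) by genotype (horizontal axes: WT, Ddx41+/+Trp53+/+; Ddx41+/-, Ddx41+/-Trp53+/+; Trp53+/-, Ddx41+/+Trp53+/-; both, Ddx41+/-Trp53+/-), with points for mice and lines for genotype means. Igtp, Irgm2 and Slc15a2 are high in both genotypes with Trp53+/-, Zfp69 is high in the double heterozygotes alone, and Nfkbia and Tnfaip3 are highest in the double heterozygotes with the single heterozygotes in between.

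The 5 DEGs with the smallest adjusted p (Irgm2, Slc15a2, Igtp, Myo15 and Mid1) were in neither the B cell nor the NF-kB lists. Irgm2 (chr11:58199618-58222782) and Igtp (chr11:58199556-58207591) lie together on chromosome 11 and encode immunity-related GTPases, interferon-inducible proteins that act on membranes enclosing intracellular pathogens. Their annotated spans overlap, so reads could be shared between them and their 2 values are not independent. Irgm2 was at 17.5, 12.2 and 26.7 CPM in the double wild-type mice and 166 and 180.3 CPM in the double heterozygotes (log2 fold change 3.22 ± 0.201 (SE), adjusted p = 3.13e-07). Igtp was at 36, 34.9 and 61.8 CPM against 174 and 194 CPM (log2 fold change 2.07 ± 0.184 (SE), adjusted p = 2.08e-05). Their levels in the Ddx41+/+Trp53+/- mice were 151, 199 and 158 CPM (Irgm2) and 165, 216 and 169 CPM (Igtp), and Igtp was at 53.9 and 44.6 CPM in the Ddx41+/-Trp53+/+ mice, where Irgm2 was no higher than 22.7 CPM. Both genes were thus high in all 5 mice with the Trp53 knockout allele and low in all 5 without it. Both calls held without any single mouse of the comparison. The related GTPase Irgm1, in the same family, was at 63.7, 74.6 and 76.9 CPM against 74.8 and 81.7 CPM (adjusted p = 0.704).

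Of 50 interferon-stimulated genes, 3 rose (0.996% of all tested genes did) and none fell (0.11%), and the median log2 fold change was 0.12. The third besides Irgm2 and Igtp was Xaf1, an interferon-induced antagonist of apoptosis inhibitors (0.98), which lost the call without mouse 10, 46 or 47. Of 18 genes of nucleic acid sensing none was called and none had an unadjusted p under 0.05, with Tlr7, a receptor for single-stranded RNA, at a log2 fold change of 0.46.

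All 3 called interferon-stimulated genes lie on the chromosome of Trp53. Within 15 Mb of Trp53, 356 genes were tested and 7 were called (1.97%, against 1.11% of all genes). Of these, Atp1b2 lies 0.0167 Mb from Trp53, Xaf1 2.72 Mb, Myo15 9.09 Mb, Nlrp3 10.03 Mb, 2610507I01Rik 10.4 Mb, and Irgm2 and Igtp 11.4 Mb. Atp1b2, which encodes a β subunit of the sodium pump (chr11:69599736-69605942), fell from 37.9, 42.2 and 43.6 CPM to 15.5 and 19.3 CPM (log2 fold change -1.25 ± 0.147 (SE), adjusted p = 3.13e-04). In the Ddx41+/+Trp53+/- mice it was at 25.6, 22.3 and 18.9 CPM, and in the Ddx41+/-Trp53+/+ mice at 33.3 and 33.9 CPM. Myo15, an unconventional myosin of sensory hair cells (chr11:60469339-60528369), rose from 2.95, 5.93 and 4.5 CPM to 32 and 31.5 CPM (log2 fold change 2.82 ± 0.261 (SE), adjusted p = 2.62e-05), and its levels in the 2 single heterozygotes were 5.35 and 4.19 CPM (Ddx41+/-Trp53+/+) and 24.3, 42.3 and 23.7 CPM (Ddx41+/+Trp53+/-). Atp1b2, Myo15, Irgm2 and Igtp kept the call without each of the 5 mice, whereas 2610507I01Rik, which fell, lost it without mouse 10, 11 or 47 and Nlrp3 without mouse 46 or 47. A knockout allele and its flanking donor chromosome are inherited together, so the allele and its neighbours cannot be told apart here. Near Ddx41, 2 of 155 genes within 15 Mb were called (1.29%), Syk and Cd83.

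**Figure D3:**
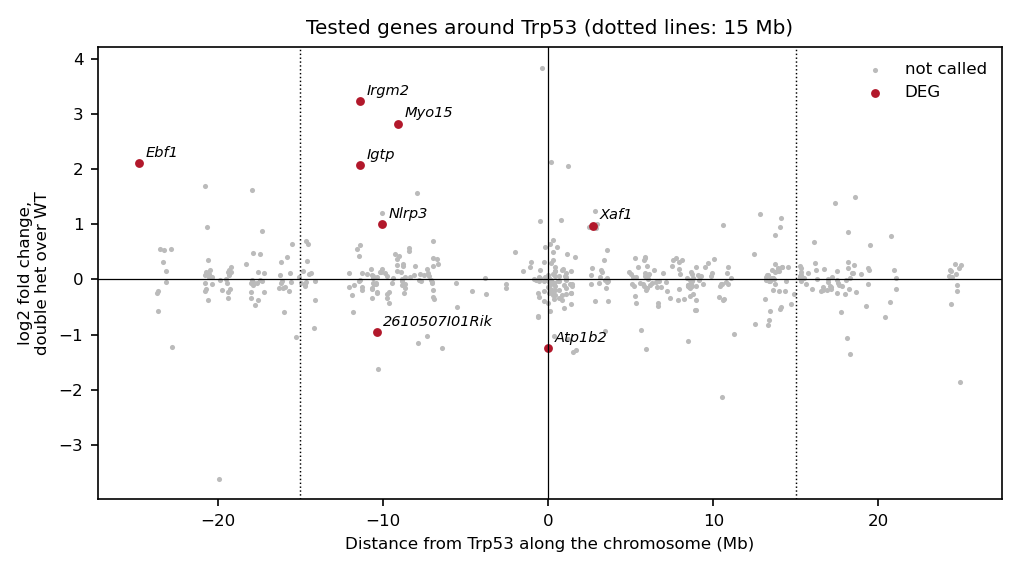
Log2 fold change of double heterozygotes over double wild type (vertical axis) of tested genes within 25 Mb of Trp53 against distance from Trp53 in Mb (horizontal axis), with DEGs in red and dotted lines at 15 Mb on either side. Within 15 Mb, Irgm2, Myo15 and Igtp stand highest among the DEGs, at lower coordinates than Trp53, and Atp1b2 beside Trp53 lies lowest, while Ebf1 lies beyond the dotted lines. Other DEGs of the chromosome, such as Rel, lie outside the range drawn.

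Slc15a2, a peptide transporter gene (chr16:36750177-36784962), had the largest fold change of all DEGs. It was at 0.686, 0.583 and 0.968 CPM in the double wild-type mice and 88.1 and 63.9 CPM in the double heterozygotes (log2 fold change 6.70 ± 0.485 (SE), adjusted p = 1.49e-06). Its level in the Ddx41+/+Trp53+/- mice was 63.3, 56.6 and 82.2 CPM, and in the Ddx41+/-Trp53+/+ mice 15.1 and 1.65 CPM, so mouse 32 differed from mouse 34 of the same genotype. The call held without each of the 5 mice. On the X chromosome, Mid1, a ubiquitin ligase bound to microtubules (chrX:169685199-170005736), was at 1.37, 1.17 and 1.45 CPM against 13.2 and 17.4 CPM (log2 fold change 3.53 ± 0.344 (SE), adjusted p = 4.42e-05) and at 18.8 and 29.8 CPM in the Ddx41+/-Trp53+/+ mice and 6.7, 11.4 and 4.31 CPM in the Ddx41+/+Trp53+/- mice. Erdr1, which was at 0.422, 0.292 and 1.73 CPM against 5.17 and 7.74 CPM (log2 fold change 3.08), lies beside it in the pseudoautosomal region, where repeated sequence makes counts uncertain. Whether the counts of Mid1 are uncertain in the same way was not tested. Erdr1 lost the call without mouse 10, 11, 46 or 47.

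In other DEGs both double heterozygotes ranked beyond every other mouse, which does not mean that the single heterozygotes were at the wild-type level. Of the 131 DEGs, 32 had both double heterozygotes beyond all 8 other mice, 28 of them above and 4 below, against 4.6% of all tested genes in either direction. All 131 were already separate from the double wild-type mice, so this share too is not a like comparison. Zfp69, a zinc finger gene of the KRAB class (chr4:120930137-120951699), was at 0.844, 0.34 and 0.415 CPM in the double wild-type mice and 5.64 and 9.76 CPM in the double heterozygotes (log2 fold change 3.82 ± 0.476 (SE), adjusted p = 5.03e-04). It was at 1.03 and 0.254 CPM and 0.3, 0.309 and 0.175 CPM in the single heterozygotes, no higher than about 1 CPM. Lyz1, a lysozyme gene (chr10:117287797-117292868), was at 1.21, 1.07 and 3.46 CPM against 15.5 and 12.7 CPM (log2 fold change 2.93 ± 0.503 (SE), adjusted p = 0.00821) and at no more than 4.07 CPM in the single heterozygotes. Lyz1 shares most of its sequence with the macrophage and neutrophil gene Lyz2, so its reads are uncertain, and Lyz2 itself was at 1108, 1049 and 1213 CPM against 1296 and 924 CPM (adjusted p = 0.974). Zbtb10, a zinc finger repressor (chr3:9250602-9285333), was at 0.844, 1.02 and 2.08 CPM against 11.7 and 10.1 CPM (log2 fold change 3.09 ± 0.326 (SE), adjusted p = 1.10e-04) and at intermediate levels in the single heterozygotes, 4.01 and 5.08 CPM and 4.8, 7.97 and 5.59 CPM. Zfp69 and Zbtb10 kept the call without each mouse, and Lyz1 lost it without mouse 46 (adjusted p = 0.118) or 47 (0.0501).

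A pair of DEGs with a large fold change rested on few reads in the low group. Mybpc2, a myosin-binding protein of fast muscle, had 0, 3 and 0 counts in the double wild-type mice and 23 and 24 counts in the double heterozygotes, a CPM ratio of 24.1 with a 95% counting interval of 7.77 to 121. Capn11, a calpain protease, had 14, 36 and 30 counts against 0 and 2 counts, a ratio of wild type over double heterozygote of 26.0 (6.96 to 218). Capn11 was also at 0 in both Ddx41+/-Trp53+/+ mice and at 9.8, 3.83 and 5.65 CPM in the Ddx41+/+Trp53+/- mice. Endou, a uridylate-specific endoribonuclease, had 5, 2 and 3 counts against 31 and 47 counts (log2 fold change 3.52). Mybpc2 and Endou lost the call without either double heterozygote, and so did Capn11, which lost it without mouse 11 too. Mybpc2 also lost it without mouse 10.

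Among the 13 genes that fell, 2 belong to erythropoietin signalling, which acts through the receptor of that hormone and the transcription factor STAT5. Fam132b encodes erythroferrone (chr1:91366305-91374217), the hormone by which erythroblasts lower hepcidin so that iron becomes available. It was at 57.2, 38 and 60.3 CPM in the double wild-type mice and 16.7 and 14.1 CPM in the double heterozygotes (log2 fold change -1.75 ± 0.219 (SE), adjusted p = 5.03e-04). The single heterozygotes had 24.5 and 21.8 CPM (Ddx41+/-Trp53+/+) and 25.8, 18.9 and 14.8 CPM (Ddx41+/+Trp53+/-), all below the lowest wild-type mouse. The call held without each of the 5 mice and with the B cell marker covariate (log2 fold change -1.77). Cish, a feedback inhibitor of STAT5 signalling (chr9:107296026-107302784), was at 41.2, 27.7 and 50.6 CPM against 20.2 and 20.8 CPM (log2 fold change -0.95 ± 0.192 (SE), adjusted p = 0.0204) and lost the call without mouse 10, 46 or 47. Of 10 targets of erythropoietin and STAT5, a list chosen after the values were seen, these 2 fell (0.11% of all tested genes did). The other 8 were not called, among them Pim1 (log2 fold change 0.28), Bcl2l1 (-0.02) and Socs3 (0.02). Log2 fold changes of the list ran from -1.75 to 1.80, with 5 positive and 5 negative and a median of 0.0006. An unadjusted p under 0.05 was found for 4 of the 10. The receptor gene Epor had a log2 fold change of -0.08 (adjusted p = 0.746).

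Ints10, a subunit of the Integrator complex that cleaves nascent small nuclear RNA (chr8:68793929-68831667), was at 126, 152 and 121 CPM in the double wild-type mice and 79.7 and 76.5 CPM in the double heterozygotes (log2 fold change -0.77 ± 0.1 (SE), adjusted p = 6.87e-04). In the Ddx41+/-Trp53+/+ mice it was lower still, at 32.2 and 35.9 CPM, and in the Ddx41+/+Trp53+/- mice it was at 127, 129.8 and 126 CPM. The call held without each mouse. Ddx18, a nucleolar DEAD-box helicase (chr1:121553835-121567989), was at 20.1, 22.7 and 17 CPM against 11.3 and 12.9 CPM (log2 fold change -0.73 ± 0.158 (SE), adjusted p = 0.031). Its double heterozygous values were the lowest of all 10 mice. Fads2, a fatty acid desaturase (-0.64), Sdsl, a serine dehydratase-like enzyme (-1.02), Pdia2, a protein disulfide isomerase (-0.72), and Tbc1d24 (-0.69) fell as well. Of all 13 genes that fell, 4 were called without mouse 46 (Fam132b, Atp1b2, 2610507I01Rik and Ints10) and 3 without mouse 47 (Fam132b, Atp1b2 and Ints10), and 4 without mouse 10, 6 without mouse 11 and 11 without mouse 12.

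Genes of the core erythroid programme gave no call. None of 15 tested genes of globin and heme synthesis (median log2 fold change -0.06), of 20 of the red cell membrane and iron handling (-0.04) or of 24 erythroid regulators (0.0014) was called, and 1, 1 and 3 of them had an unadjusted p under 0.05. DESeq2 called 1, the regulator Myb. Alas2, the first enzyme of heme synthesis, was at 8082, 7007 and 8354 CPM in the double wild-type mice and 8204 and 7827 CPM in the double heterozygotes. Gata1 and Klf1, the master regulators of the lineage, had log2 fold changes of -0.08 ± 0.0737 and 0.01 ± 0.0692 (SE). Tfrc, which encodes the CD71 used for the sort, was at 2933, 2932 and 3320.1 CPM against 2692 and 3172 CPM. The smallest unadjusted p of these lists belonged to Myb, the progenitor factor, at 21.8, 13.1 and 21.5 CPM against 32.2 and 26.3 CPM (log2 fold change 0.64, adjusted p = 0.103), to the membrane reductase Steap3 (-0.25, adjusted p = 0.351) and to the embryonic globin Hbb-bh1, with 6, 47 and 7 counts against 5 and 2 counts.

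Of 40 tested p53 target genes of arrest, death and feedback, 20 had positive and 20 negative fold changes, and the median was -0.0023. Only 1 was called (2.5%, against 1.11% of all genes), Plk2, a kinase of centriole duplication. An unadjusted p under 0.05 was found for 12 of the 40, against 1372 of all 11846 genes. Plk2 rose from 8.65, 3.89 and 6.43 CPM to 16.5 and 11 CPM (log2 fold change 1.12 ± 0.262 (SE), adjusted p = 0.0454) and lost the call without any of mice 11, 12, 46 and 47. Cdkn1a, the cyclin-dependent kinase inhibitor p21, was at 6.75, 6.71 and 7.68 CPM in the double wild-type mice, 5.87 and 4.99 CPM in the double heterozygotes, 16.6 and 15.6 CPM in the Ddx41+/-Trp53+/+ mice and 4.4, 6.55 and 3.84 CPM in the Ddx41+/+Trp53+/- mice. The Ddx41+/-Trp53+/+ mice stood highest, and the double heterozygotes were slightly below the double wild type (adjusted p of double heterozygote against double wild type = 0.577). Mdm2, the ubiquitin ligase of p53, had a log2 fold change of 0.06, and Bax, a death effector at mitochondria, 0.01. Bbc3, which encodes the death protein PUMA, was at 22.7, 33.9 and 24.6 CPM against 46 and 57 CPM (log2 fold change 0.92 ± 0.227 (SE), adjusted p = 0.0617), and none of 16 genes of the BCL2 family was called (median 0.04, with 5 at an unadjusted p under 0.05).

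The heat-shock genes Hspa1a and Hspa1b, near-identical copies whose reads may be split, were likewise highest in the Ddx41+/-Trp53+/+ mice. Hspa1b was at 41.5, 58.9 and 17.7 CPM in the double wild-type mice, 34.3 and 74.8 CPM in the double heterozygotes and 173 and 184 CPM in the Ddx41+/-Trp53+/+ mice, and Hspa1a was at 17.1, 27 and 6.09 CPM (double wild type), 17.6 and 36.9 CPM (double heterozygous) and 87.1 and 72.1 CPM (Ddx41+/-Trp53+/+). Neither passed the test between double heterozygotes and double wild type (adjusted p = 0.669 and 0.554). Of 18 heat-shock and chaperone genes, 1 was called (5.56%, against 1.11% of all genes). This was Dnajb9, a cochaperone of the endoplasmic reticulum (log2 fold change 0.93 ± 0.174 (SE), adjusted p = 0.0138). Dnajb9 lost the call without mouse 46 or 47 (log2 fold change 1.05 and 0.80). It lost it with the B cell marker covariate as well, at a log2 fold change of 1.03 (adjusted p = 0.211), no smaller than without the covariate. Herpud1, of the same organelle's protein degradation and chosen after its values were seen, rose from 59.5, 69.6 and 49.3 CPM to 100.2 and 126 CPM (log2 fold change 0.93 ± 0.198 (SE), adjusted p = 0.0282). Herpud1 lost the call by DESeq2 and without mouse 10, 12, 46 or 47 (log2 fold change 0.76 to 1.08). It lost it with the covariate too (0.83, adjusted p = 0.406), and kept it in 5 of 11 alternatives. None of 22 genes of the integrated stress response was called (median 0.0005, with 6 at an unadjusted p under 0.05), the smallest p being that of Shmt2, a mitochondrial enzyme of serine metabolism (-0.42, adjusted p = 0.0579).

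The lists of functions linked to DDX41, of translation, protein turnover and respiration held no gene called by edgeR or DESeq2. Ddx18 and Ints10, which fell as given above, were in none of these lists. Most fold changes of the listed genes were negative, as were those of 5997 of all 11846 genes. Among 32 snoRNA host genes and nucleolar factors of ribosome assembly, 26 had negative fold changes and the median log2 fold change was -0.22, with Pes1, an assembly factor of the large subunit, at 28.8, 28 and 24.3 CPM against 21.5 and 19.2 CPM (log2 fold change -0.41 ± 0.131 (SE), adjusted p = 0.181). Of 83 ribosomal protein genes, 78 had negative fold changes, with a median of -0.12 (Rpl14, -0.28, adjusted p = 0.144). Double wild-type mouse 12 was as low as the double heterozygotes, since the ribosomal protein genes summed to 39519, 39922 and 34914 CPM in mice 10, 11 and 12 against 34921 and 35031 CPM, so the difference lay in mice 10 and 11. The nucleolar list summed to 2967, 3109.7 and 2753 CPM against 2699 and 2762 CPM, again with overlap through mouse 12, which was also the lowest wild-type mouse for oxidative phosphorylation (7827, 8095 and 7261 against 7093 and 7104 CPM). The medians were -0.12 for 36 translation initiation factors (Eif3c, -0.29), -0.12 for 38 proteasome subunits (Psmc2, -0.25) and -0.12 for 75 genes of oxidative phosphorylation (Cox6b2, -0.54). Splicing factors had a median of -0.05 over 41 genes (Cwc22, -0.38), and genes of DNA damage and R loops -0.03 over 28 (Ddx5, 0.26). These genes are abundant and CPM is a share of the total, so a difference of this size is relative to the other genes. Replication and mitosis genes, 38 and 31 in number, had medians of -0.05 and -0.01, and none was called or had an unadjusted p under 0.05 (Rfc1, -0.13; Ccnb1, -0.14). An unadjusted p under 0.05 was found for 1372 of all 11846 genes, and for 6 of 32 genes of the snoRNA and nucleolar list, 15 of 83 ribosomal protein genes, 6 of 36 initiation factors, 5 of 38 proteasome subunits, 9 of 75 genes of oxidative phosphorylation, 3 of 41 splicing factors and 4 of 28 genes of DNA damage and R loops.

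**Figure D4:**
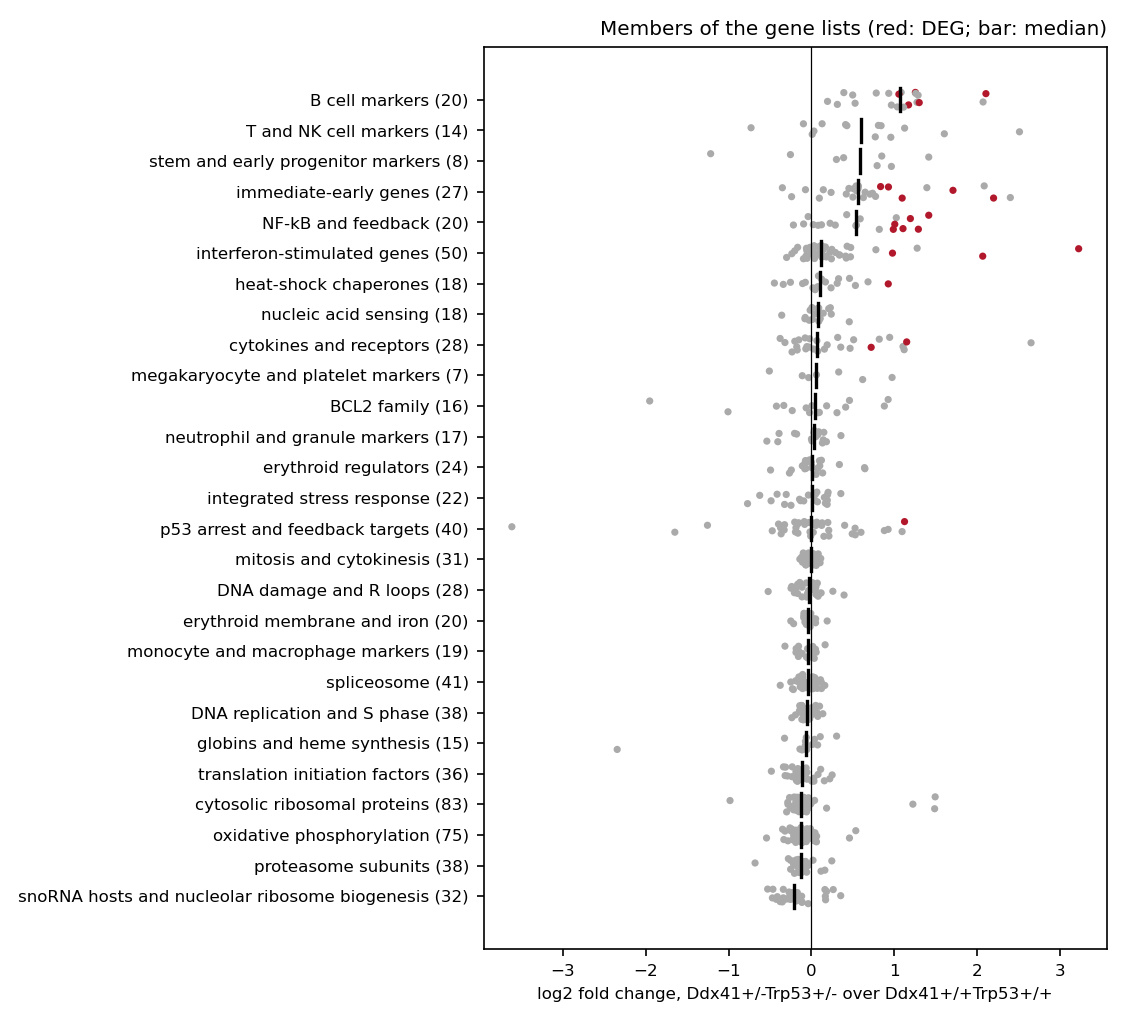
Log2 fold change of double heterozygotes over double wild type (horizontal axis) for every tested member of 27 gene lists (rows, with the number of members tested), DEGs in red and the median of each list as a black bar. The B cell list stands farthest to the right with a median of 1.07, followed by the T and NK cell (0.60), stem and progenitor (0.59), immediate-early (0.57) and NF-kB (0.54) lists, whereas the erythroid, p53 and cell cycle lists are centred close to 0.

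Markers of other cell types gave no call in the lists of neutrophils, macrophages, T and NK cells, megakaryocytes and stem cells, by edgeR or DESeq2. Among 17 neutrophil and granule genes none was called, the median was 0.03 and the summed level was 5575 to 9007 CPM in the double wild-type mice and 5249 and 8971 CPM in the double heterozygotes, with S100a9 at 1638, 1496 and 2336 CPM against 2398 and 1319 CPM. Monocyte and macrophage markers (19 tested, median -0.04) were at 1572 to 2064 CPM in sum against 1551 and 2119 CPM, with Lyz2 and Ccr2 not called. The groups overlapped for both cell types. For 14 T and NK cell markers the median was 0.60 with none called, and the levels were low, with Lck at 14.7, 13 and 12.6 CPM against 13 and 14.1 CPM and Gzma, a granzyme, at 0.211, 0 and 0.623 CPM against 1.63 and 1.35 CPM (adjusted p = 0.194), and 2 had an unadjusted p under 0.05. The summed T and NK level was 23.03 to 31.9 CPM against 33.8 and 37.7 CPM, so it moved with the genotype as the B cell genes did, and its part in the results was not tested. For 8 stem and progenitor markers the median was 0.59 with none called (Flt3, 2.69, 2.58 and 1.94 against 5.52 and 3.93 CPM, adjusted p = 0.26; Cd48, 0.39), and 3 had an unadjusted p under 0.05. The 8 tested stem and progenitor markers summed to 16.6, 18.03 and 19.2 CPM against 28.1 and 23.7 CPM. They too thus moved with the genotype without overlap, and their part in the results was not tested. For 7 megakaryocyte and platelet genes the median was 0.06 (Itga2b, 0.33; Vwf, 0.06). Sex-linked genes (6 tested, none called) showed Y-linked transcripts in every library, with Eif2s3y at 50.6, 51.7 and 45.9 CPM against 62.3 and 70 CPM (adjusted p = 0.105).

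Of 9 tested markers of basophils and mast cells, picked out after the values had been seen, 3 proteases rose (0.996% of all tested genes did) and none fell (0.11%). Prss34 was at 20.5, 17.8 and 17.2 CPM in the double wild-type mice and 35.7 and 66.7 CPM in the double heterozygotes (log2 fold change 1.47 ± 0.248 (SE), adjusted p = 0.00691), Mcpt8 at 10, 7.34 and 6.99 CPM against 14.6 and 39.2 CPM (log2 fold change 1.72 ± 0.358 (SE), adjusted p = 0.0234) and Cpa3 at 1.69, 2.33 and 2.01 CPM against 5.81 and 8.52 CPM (log2 fold change 1.83 ± 0.319 (SE), adjusted p = 0.00905). In all 3, mouse 47 was the higher of the double heterozygotes, and without it none was called (adjusted p 0.141 to 0.483). Mcpt8 lost the call also without mouse 11 or 12. The 9 tested markers of these cells had a median log2 fold change of 1.47. They summed to 64.7 to 74.6 CPM in the double wild-type mice and 122 and 171 CPM in the double heterozygotes. In the Ddx41+/+Trp53+/- mice the sum was 95.6 to 127 CPM. In the Ddx41+/-Trp53+/+ mice it was 103 CPM (mouse 32) and 62.5 CPM (mouse 34), the latter below every double wild-type mouse. The part of these cells in the other results was not tested.

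**Figure D5:**
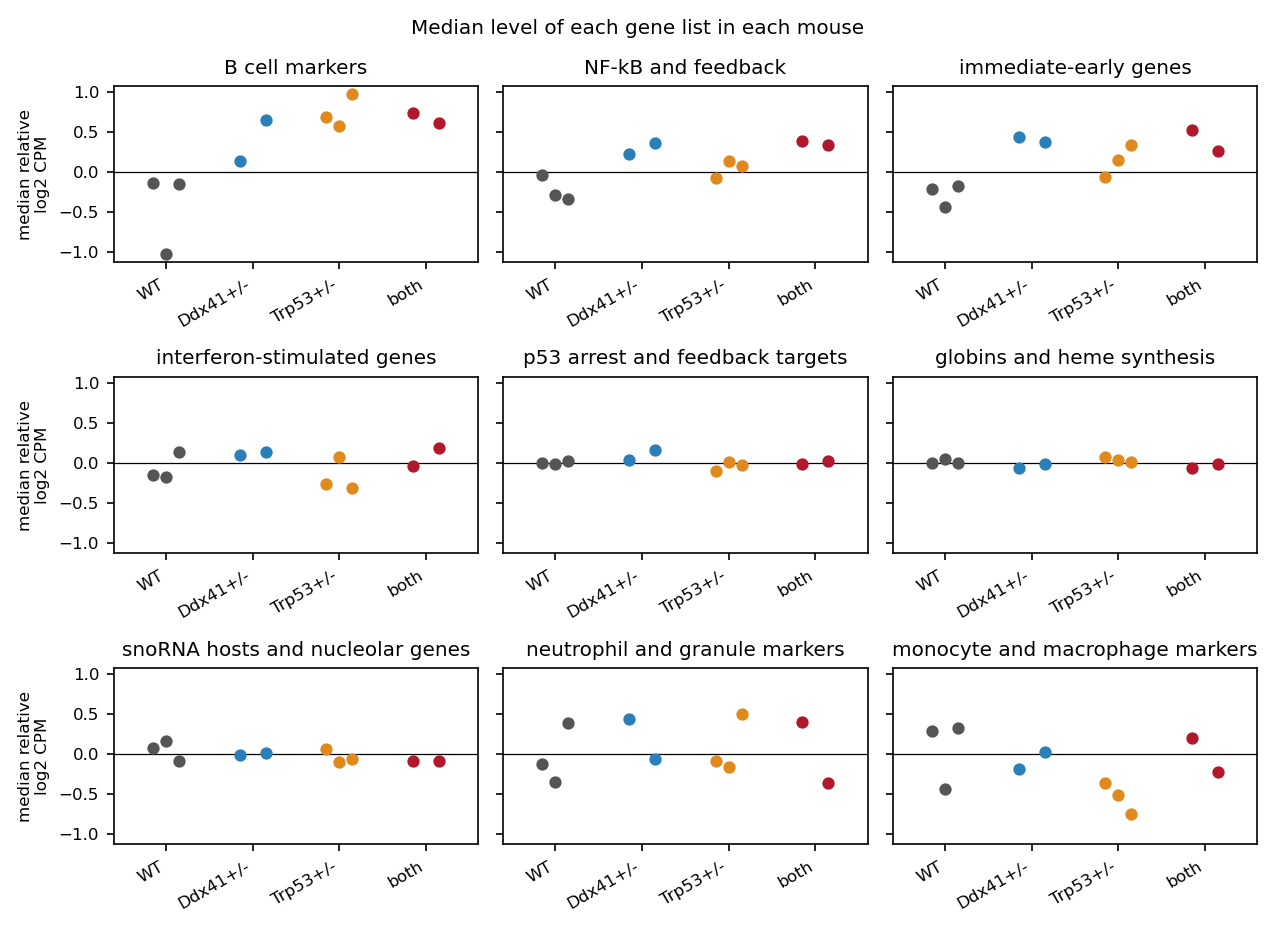
Median log2 CPM of the members of 9 gene lists in each mouse, relative to each gene's mean over the 5 mice compared (vertical axis), by genotype (horizontal axis: WT, Ddx41+/+Trp53+/+; Ddx41+/-, Ddx41+/-Trp53+/+; Trp53+/-, Ddx41+/+Trp53+/-; both, Ddx41+/-Trp53+/-), with 1 point per mouse. The B cell list is lowest in double wild-type mouse 11 (-1.03) and above 0 in all 7 heterozygous mice. The NF-kB and immediate-early lists are lower in the 3 double wild-type mice than in the 2 double heterozygotes. The neutrophil list spreads within every genotype. The macrophage list is below 0 in all Ddx41+/+Trp53+/- mice (-0.36, -0.51 and -0.75) and on both sides of 0 in each of the other genotypes.

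Last, the double heterozygotes were compared with the sum of the single heterozygotes, by testing whether the Ddx41 difference with Trp53+/- departed from that with Trp53+/+ on the log2 scale. Of 11846 genes, 8 departed (0.0675%), 4 in each direction, and 593 had an unadjusted p under 0.05. The 5 with the smallest adjusted p were Cdk5rap1, which modifies mitochondrial tRNA, Srpk2, a kinase of splicing factors, Nap1l1, a histone chaperone, Ints10 and Gcdh, an enzyme of lysine breakdown. Cdk5rap1 was at 7.59, 3.84 and 5.95 CPM in the double wild-type mice, 39.6 and 41.5 CPM in the Ddx41+/-Trp53+/+ mice, 25.9, 17.6 and 17.6 CPM in the Ddx41+/+Trp53+/- mice and 2.96 and 4.26 CPM in the double heterozygotes (departure -5.29 ± 0.363 on the log2 scale, adjusted p = 1.30e-06). It was called higher than the double wild type in both single heterozygotes, whereas 1 double heterozygote lay within the wild-type range and the other below it. Srpk2 was at 7.8, 9.04 and 11.7 CPM (double wild type), 48 and 55.1 CPM (Ddx41+/-Trp53+/+), 9.5, 12.2 and 17.2 CPM (Ddx41+/+Trp53+/-) and 9.59 and 8.19 CPM (double heterozygous) (-3.01 ± 0.309, adjusted p = 2.27e-04). Nap1l1 was at 210.4, 222 and 205 CPM (double wild type), 97.9 and 102 CPM (Ddx41+/-Trp53+/+), 229, 194 and 215 CPM (Ddx41+/+Trp53+/-) and 198 and 221 CPM (double heterozygous) (1.07 ± 0.121, adjusted p = 3.87e-04). Gcdh was at 81.5, 94.5 and 85.6 CPM (double wild type), 34.9 and 35.7 CPM (Ddx41+/-Trp53+/+), 77.6, 94.5 and 79.7 CPM (Ddx41+/+Trp53+/-) and 86.9 and 82.7 CPM (double heterozygous) (1.32 ± 0.147, adjusted p = 3.87e-04). For Srpk2, Nap1l1 and Gcdh the Ddx41+/-Trp53+/+ mice stood apart and the other 3 genotypes lay together. Ints10 was lowest in the Ddx41+/-Trp53+/+ mice and intermediate in the double heterozygotes (1.27 ± 0.145, adjusted p = 3.87e-04). None of the 8 was an NF-kB, immediate-early or B cell gene, and the departure of Nfkbia was -0.31 ± 0.222 (adjusted p = 1).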

How the data were processed

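RNA was sequenced as 75-base paired reads from sorted R2 cells of 10 mice. The authors made the deposited values, raw read counts per gene symbol, from poly(A)-selected libraries. The submitters' processing notes name FastQC 0.11.7, HISAT2 2.0.5, featureCounts 1.5.2 and the genome build mm10. The annotation and the counting options for strand and multi-mapping reads are not given in the sources used here, so reads of overlapping, antisense and near-identical genes may be split or merged.

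Library totals were 7866648 to 20283930 counts over the series. Genotypes were taken from the sample labels. The main test was edgeR's quasi-likelihood test (edgeR 4.0.16, R 4.3.3) on the counts of all 10 libraries, with 1 mean per genotype, TMM scaling and the filterByExpr filter. A gene was called at a fold change over 1.5 and a Benjamini-Hochberg adjusted p under 0.05. Adjusted p-values are over all 11846 genes tested. Each library came from 1 mouse and was taken as the replicate. The standard error was the size of the log2 fold change divided by the square root of F. Alternatives were DESeq2 (1.42.0), its size factors, other filters, only the 2 genotypes compared, each of the 5 mice left out in turn, no limit on the fold change, and, chosen only once the values were known, a covariate for the B cell marker level. The steps were tested on simulated data. Gene positions are GRCm38, from GENCODE M21 where it held the symbol and otherwise from RefSeq, as for Fam132b and Erdr1. Promoters are from RefSeq (GRCm38.p6), and a gene with several starts counted as matching if any start had a match.

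Named genes were the targeted genes, the 10 largest changes in each direction, up to 4 called members of each gene list by adjusted p or, for a list without calls, the member of smallest p, the marker of highest mean CPM for lists of other cell types, and the 5 genes of smallest adjusted p for additivity. Any other gene named was chosen after its values were seen. The members and lists were chosen with earlier results of these data known. Results for some genes are not reported here.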

Additional observations from a re-analysis of the deposited data

Results flagged for a closer look

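The difference between Ddx41+/- and Ddx41+/+ mice was itself different with Trp53+/- and with Trp53+/+ for 8 genes, by the departure from additivity on the log2 scale in edgeR's quasi-likelihood test over all 10 mice. A negative value means that Ddx41 heterozygosity went with a smaller rise, or a larger fall, in Trp53+/- mice than in Trp53+/+ mice. The departure was -5.29 for Cdk5rap1, -3.01 for Srpk2, -7.01 for Clgn and -3.15 for Mid1. It was 1.07 for Nap1l1, 1.27 for Ints10, 1.32 for Gcdh and 0.84 for Acp1, with adjusted p from 1.30e-06 to 0.00715 over the 8 genes. Clgn, which encodes a chaperone of the endoplasmic reticulum, was at 14.7 and 15.4 CPM in the Ddx41+/-Trp53+/+ mice and at no more than 0.494 CPM in the other 8. Acp1, a low molecular weight phosphatase, was at 175 and 166 CPM in the Ddx41+/-Trp53+/+ mice and at 278 and 332 CPM in the double heterozygotes. All 8 genes were called between the Ddx41+/-Trp53+/+ mice, which are 2 in number, and the double wild type, and 2 of them (Ints10 and Mid1) between the double heterozygotes and the double wild type. The cause was not tested.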

How the results depend on the processing

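The double heterozygote against double wild-type comparison gave 131 DEGs, and the number moved to 284 without a filter on low counts, to 77 with only the 2 genotypes compared and to 8 with the B cell marker level as a covariate. Leaving out 1 mouse gave 31 to 159 DEGs, the lowest without mouse 46, with 41 without mouse 47. DESeq2 gave 184 DEGs, of which 123 were among the 131. Ddx41 lost the call with only the 2 genotypes compared (log2 fold change -0.72), with the covariate (-0.82) and without mouse 10, 46 or 47. Its log2 fold change kept its direction, over a range of -0.89 to -0.57 when 1 mouse was left out. The groups did not overlap for Ddx41, so leaving out a mouse could hardly have reversed its direction. The count of genes departing from additivity was 8, and it moved to 29 by DESeq2 and to 100 without a filter on low counts. The causes were not tested. In the fits without mouse 46 or 47 the remaining double heterozygote is assumed to vary like the other genotypes. No paired analysis was possible because the genotypes share no replicate numbers. With 2 mice against 3, an exact permutation test of 1 gene cannot go below p = 0.1, and genes under the count floor could not be compared.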
